A study of Mus musculus with 6 samples.

Results

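The integrin and laminin chain genes made up 36 of the 18545 genes named on the array. They comprised 17 integrin alpha chains, 9 integrin beta chains and 10 laminin chains, read by 43 probes. Members were the genes whose symbol in the platform annotation was Itga or Itgb followed by a number or letter. Symbols of Lama, Lamb or Lamc followed by a number were members too. The rule reads names and no measured value, but it was set with earlier results of these data known. Symbols that only begin this way (Itgb1bp1, Itgb1bp2, Itgb3bp and Itgbl1) name partners or relatives of the chains and were kept apart. The members were measured in total RNA of mouse testis, of mouse epididymis, the duct in which sperm mature, and of the stromal vascular fraction (SVF) of mouse adipose tissue, the cells of fat other than adipocytes. Each pair of these tissues was hybridised on 2 arrays between which the dyes Cy3 and Cy5 were exchanged, 6 arrays in all. The series names 1 RNA sample per tissue, and the sources used here do not give strain, age, fat depot, treatment or the number of animals.

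Integrins are receptors made of 1 alpha and 1 beta chain that tie the cytoskeleton to the extracellular matrix or to other cells. Laminins are cross-shaped trimers of an alpha, a beta and a gamma chain, and with collagen IV, nidogen and perlecan they form the basement membrane, the sheet under every epithelium and around vessels, muscle and fat cells. In testis a basement membrane encloses the seminiferous tubules and in epididymis it underlies the duct, while leukocytes carry integrins of their own for adhesion to vessel walls and other cells.

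Values are log2 ratios of the first tissue over the second, as the mean of both arrays ± SD (n = 2 hybridisations of the same RNAs). The SD holds the error of dye and hybridisation alone and none of the variation among animals, so no tissue difference was tested and no p-value is given. A chain counts as higher in a tissue where both arrays gave a log2 ratio of at least 1 (2-fold) toward that tissue, here called the size rule. The 3 comparisons share tissues and are not independent of each other. The labels state neither the base of the logarithm nor the direction of the ratio. Base 2 is the convention, on which every fold rests. Cy5 over Cy3 was taken as the direction, since the titles name the Cy5 tissue first, and tissue markers went to their own tissue under this reading: testis exceeded SVF for 7 of 8 germ cell genes (median 5.33), epididymis exceeded SVF for 6 of 6 epididymal duct genes (median 5.96) and SVF exceeded testis for 3 of 3 pan-leukocyte genes (median -4.91). The opposite reading would reverse each of these. Spot brightness was not analysed here, and a chain near background in a tissue cannot be told from one well above it. The median SD of the 36 genes was 0.34 (testis over SVF), 0.26 (epididymis over SVF) and 0.32 (epididymis over testis), with 0.33, 0.37 and 0.35 over all named genes. The arrays of epididymis over testis agreed least for the members: Pearson's r between them was 0.33 across the 36 genes, which are not independent, and 0.81 across all named genes, and the signs differed for 12 of 36 (33.3%), against 23.9% of all genes. For testis over SVF and epididymis over SVF, r across the 36 genes was 0.83 and 0.83.

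Defining markers mostly followed the tissue labels in their ratios. Testis exceeded SVF for 5 of 5 Leydig cell genes, and the synaptonemal complex gene Sycp3 was the germ cell exception (-0.23 ± 1.11). Of the Sertoli cell genes, 2 of 6 (Cldn11 and Rhox5) were higher in testis. Epididymis exceeded SVF for 6 of 6 simple epithelium genes and 5 of 8 germ cell genes. Toward SVF and against testis, the counts were 5 of 6 macrophage genes, 5 of 5 mesenchymal progenitor genes and 4 of 6 endothelial genes.

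Chains of both families were most often higher in SVF. Against both other tissues, SVF was higher for 5 of 10 laminin and 5 of 26 integrin chains, beside 6.95% of all genes. Against testis, 18 of the 36 genes were higher in SVF, where 16% of all named genes were, and 2 were higher in testis, where 20.7% of all named genes were. The median log2 ratio of testis over SVF was -1.20 for the 36 genes and 0.00 for all genes. Against epididymis, 11 of 36 were higher in SVF, beside 8.68% of all genes, and 2 were higher in epididymis, beside 10.2%. The median of epididymis over SVF was -0.40, with 0.07 for all genes. Either array alone put 4 genes higher in epididymis in place of 2, beside 17.3% of all genes. Between the 2 organs, 6 of 36 genes were higher in epididymis than in testis, close to the 14.3% of all genes, and 1 was higher in testis, beside 18%. The median of epididymis over testis was 0.44, with 0.00 for all genes. The first of these arrays alone gave 8 genes higher in epididymis (beside 20.3% of all genes) and 4 higher in testis (beside 24.3%). The second alone gave 15 (beside 19.8%) and 1 (beside 24.1%).

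**Figure D1:**
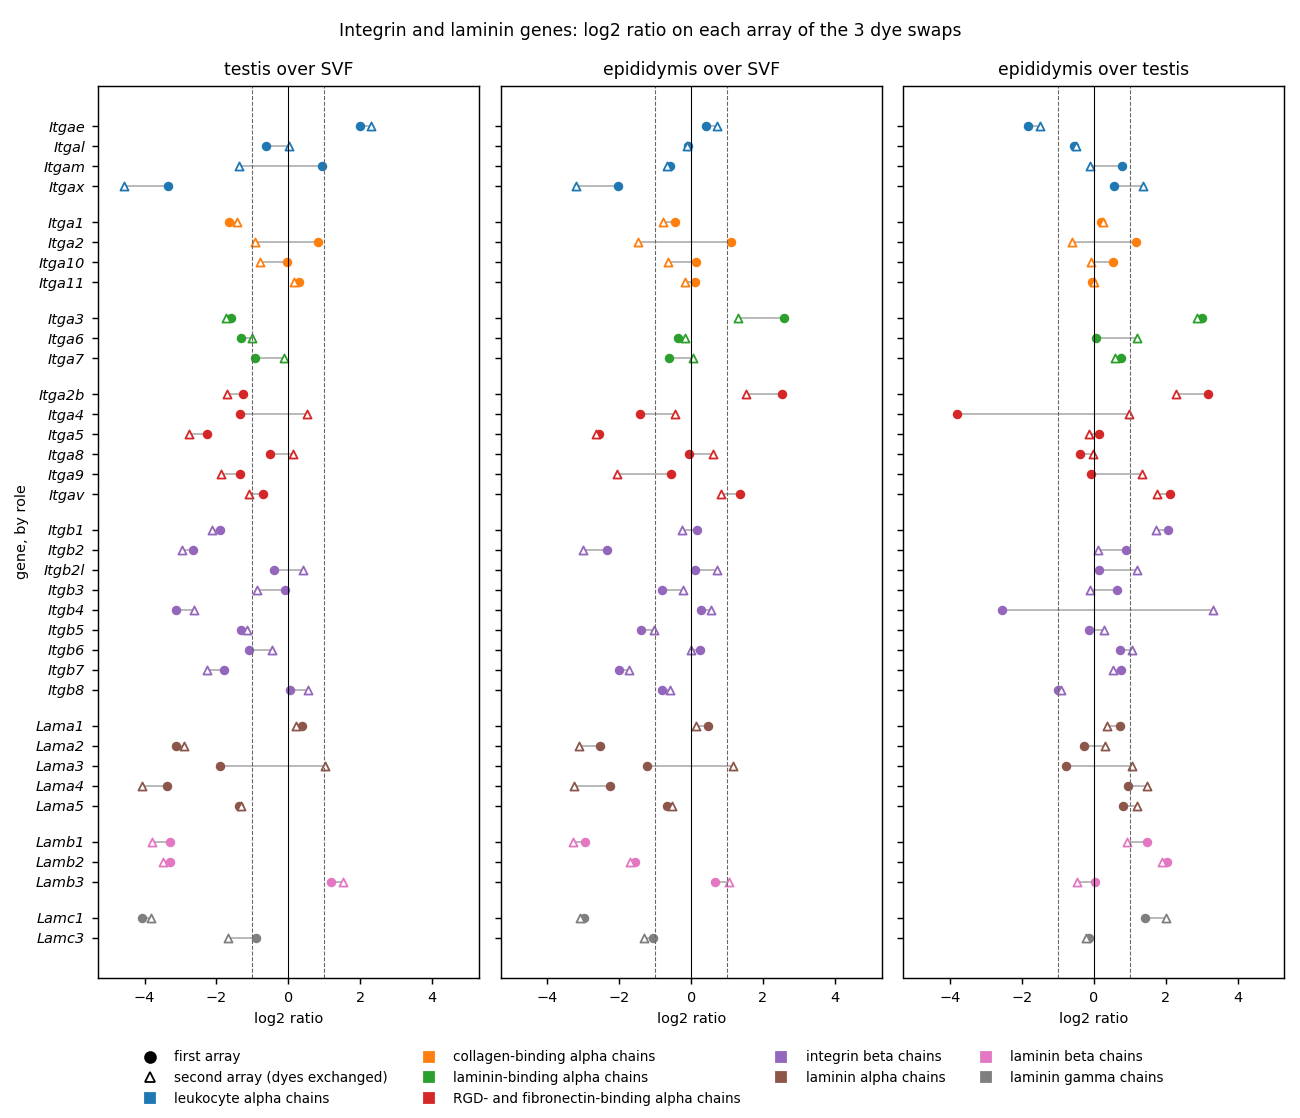
Log2 ratio (x axis) of each of the 36 genes (y axis, by role) on the first array (filled circle) and the dye-exchanged second array (open triangle) of testis over SVF, epididymis over SVF and epididymis over testis; dashed lines mark a log2 ratio of 1 in either direction. The leftmost point belongs to Itgax in testis over SVF, whose arrays read -3.35 and -4.56, and the widest gap between arrays to Itgb4 in epididymis over testis, at -2.55 and 3.30.

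Across the 3 comparisons, 22 of the 36 genes met the size rule at least once (61.1%, against 47.1% of all genes) and 14 never did. SVF stood above both other tissues for 10 genes, which is 27.8% of the members and 6.95% of all genes. These were Itga5, Itgax, Itgb2, Itgb5, Itgb7, Lama2, Lama4, Lamb1, Lamb2 and Lamc1. Epididymis stood above both other tissues for Itga2b and Itga3, 5.56% of the members and so near the 4.34% of all genes. Testis stood above both for Itgae alone, 2.78% of the members, where 15.6% of all genes did. Testis lay below both other tissues for 5 genes (13.9%, beside 7.97% of all genes), namely Itga2b, Itga3, Itgb1, Lamb2 and Lamc1. A least-squares estimate over all 6 arrays, which gives each tissue a level relative to the mean of the 3, put SVF highest for 25 genes, epididymis for 7 and testis for 4, and testis lowest for 26. The order SVF, epididymis, testis was found for 21 genes, and the order epididymis, SVF, testis for 5, namely Itga2b, Itga3, Itgav, Itgb2l and Itgb6. Every gene receives such an order, however small its gaps, and the orders were not counted over all named genes. Neighbours in an order can lie closer than the spread between arrays, as for Itga8 with gaps of 0.01 and 0.04. Itgb1 had 0.68 in SVF, 0.62 in epididymis and -1.30 in testis, so that SVF and epididymis lay within the SD of the arrays (-0.04 ± 0.29) and testis lay apart.

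**Figure D2:**
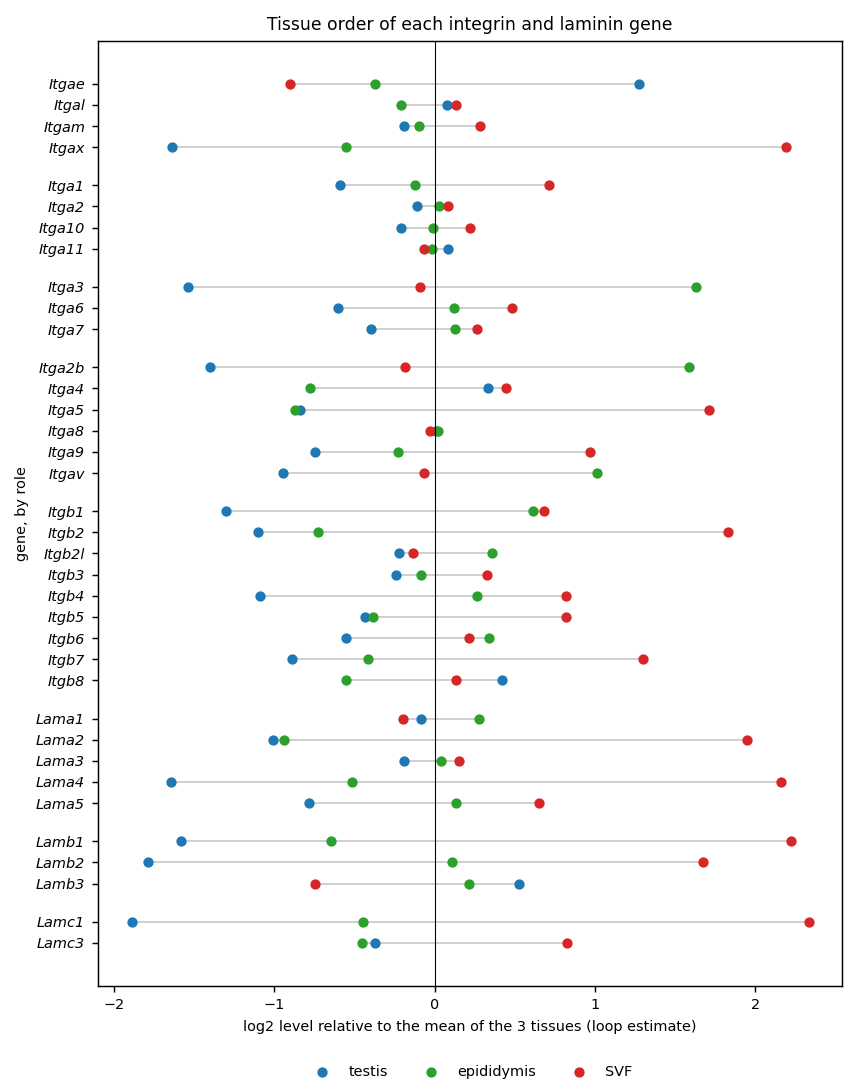
Estimated log2 level of each gene in testis (blue), epididymis (green) and SVF (red), relative to the mean of the 3 tissues (x axis, least-squares estimate over all 6 arrays), with genes by role on the y axis. SVF is the rightmost point for 25 of 36 genes (not counted over all named genes), with Lamc1 at 2.33, and epididymis is the rightmost for Itga3 at 1.63.

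Among the laminins, SVF exceeded testis for 6 of 10 chains (beside 16% of all genes) and exceeded epididymis for 6 of 10 (beside 8.68%). The median log2 ratios were -2.18 and -1.41. Lamc1, the gamma chain shared by most laminin trimers, had testis over SVF ratios of -4.06 and -3.83 on the 2 arrays, a mean of -3.95 ± 0.16 and thus 15.4-fold more transcript in SVF. Its epididymis over SVF ratios were -2.99 and -3.10 (-3.05 ± 0.08, 8.26-fold). Both arrays of each pair lay on the SVF side and close together. Lamb1, the beta chain that commonly joins it, stood at -3.29 and -3.79 for testis over SVF (-3.54 ± 0.35, 11.6-fold higher in SVF) and at -2.95 and -3.29 for epididymis over SVF (-3.12 ± 0.24, 8.69-fold). Lama4, the alpha chain typical of vessel and fat cell basement membranes, gave -3.38 and -4.06 (-3.72 ± 0.48, 13.2-fold) against testis and -2.27 and -3.26 (-2.77 ± 0.70, 6.80-fold) against epididymis. Lama2, the chain of muscle and mesenchymal basement membranes, gave -3.11 and -2.91 (-3.01 ± 0.14) and -2.55 and -3.13 (-2.84 ± 0.41). These 4 chains were thus at least 4-fold higher in SVF on every array that carried SVF.

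In bulk tissue, fewer cells of a type and less RNA per cell cannot be told apart, which holds for every ratio given here. Endothelial genes (4 of 6 toward SVF in both comparisons, median -2.15 against testis and -2.20 against epididymis) moved toward SVF together with these laminin chains. So did mesenchymal progenitor genes (5 of 5 and 4 of 5, medians -4.88 and -2.90). Leukocyte lists moved the same way, among them pan-leukocyte genes (3 of 3 in both, medians -4.91 and -3.15) and macrophage genes (5 of 6 and 6 of 6, medians -3.29 and -2.87). Smooth muscle and pericyte genes went toward SVF for 3 of 6 against testis (median -1.50). Against epididymis, 1 of 6 was higher in SVF and 1 in epididymis (median 0.57). The part of any of these cells in the laminin ratios was not tested.

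Lamb2, the beta chain that replaces Lamb1 in many mature basement membranes, separated all 3 tissues. It was 10.5-fold higher in SVF than in testis (-3.30 and -3.48, mean -3.39 ± 0.13), 3.10-fold higher in SVF than in epididymis (-1.57 and -1.69, mean -1.63 ± 0.09) and 3.91-fold higher in epididymis than in testis (2.03 and 1.90, mean 1.97 ± 0.09). Lamc1 was also higher in epididymis than in testis (1.42 and 2.01, mean 1.72 ± 0.42). Lamb1, at 1.47 and 0.91, Lama4, at 0.95 and 1.48, and Lama5, at 0.81 and 1.20, each missed the rule on 1 of the arrays, while Lama2 did not separate epididymis from testis (0.01 ± 0.40).

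The remaining laminins differed from this pattern. Lama5, the alpha chain of epithelial and vessel basement membranes, was 2.55-fold higher in SVF than in testis (-1.39 and -1.32, mean -1.35 ± 0.05) and did not meet the rule against epididymis (-0.60 ± 0.09). Lamc3 met it against epididymis (-1.05 and -1.32) and lay just outside against testis, where its arrays read -0.91 and -1.67. Lamb3, the beta chain of the epithelial anchoring laminin, was the only laminin higher in testis than in SVF, at 1.20 and 1.53 (1.37 ± 0.23, 2.58-fold). In epididymis over SVF it had 0.68 and 1.06, and epididymis and testis did not differ beyond the arrays (-0.22 ± 0.35). Lama3, the alpha chain partner of Lamb3, gave -1.91 and 1.03 for testis over SVF, -1.22 and 1.18 for epididymis over SVF and -0.78 and 1.05 for epididymis over testis, with opposite signs in each comparison. Lama1, the chain of early embryonic basement membranes, had means of 0.30, 0.29 and 0.54 in the 3 comparisons and never met the rule.

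The promoters of Lamb1 and Lamb2 are shown because both genes were higher in SVF on every array that carried SVF. Between epididymis and testis only Lamb2 met the rule, and Lamb1 missed it on 1 array (1.47 and 0.91). RefSeq windows of 250 bases before to 50 after the annotated start, in GRCm38.p6, were listed for 24 of the 36 genes (27 windows, as Itga3, Itgb6 and Lamb3 have 2 each). The Lamb1 window is chr12:31265043-31265342 and the Lamb2 window is chr9:108479612-108479911, both on the plus strand. Capitals mark the GC box GGGCGG or its reverse complement, since both strands were searched, and a position is that of the first base of a match counted from the start.

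Lamb1: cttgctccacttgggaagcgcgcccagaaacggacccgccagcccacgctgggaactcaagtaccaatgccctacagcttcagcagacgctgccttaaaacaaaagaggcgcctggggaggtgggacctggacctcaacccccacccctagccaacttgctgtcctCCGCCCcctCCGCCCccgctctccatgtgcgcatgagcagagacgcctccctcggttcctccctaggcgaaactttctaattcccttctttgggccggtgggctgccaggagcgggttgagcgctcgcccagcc

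Lamb2: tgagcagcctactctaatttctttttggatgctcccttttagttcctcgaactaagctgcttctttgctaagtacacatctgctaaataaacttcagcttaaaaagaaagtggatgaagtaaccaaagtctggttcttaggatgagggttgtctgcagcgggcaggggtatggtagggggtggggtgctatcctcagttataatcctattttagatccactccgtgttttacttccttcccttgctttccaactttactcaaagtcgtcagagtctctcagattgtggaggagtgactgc

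Lamb1 carried 2 GC boxes, at positions -84 and -75 from the start, and Lamb2 carried none. The motif was present in 12 of 27 member windows (44.4%) and in 35.7% of all 32851 windows of the same length. A match describes the letters of the window, and a missing match says nothing about a factor.

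Of the 3 alpha chains that bind laminin, 1 was higher in epididymis than in both other tissues, beside 4.34% of all genes. Itga3, a laminin receptor chain of epithelial basal surfaces, had epididymis over testis ratios of 3.000 and 2.88, a mean of 2.94 ± 0.09 and so 7.67-fold more transcript in epididymis. Against SVF it was 3.85-fold higher in epididymis (2.59 and 1.30, mean 1.95 ± 0.91), and SVF in turn was 3.17-fold above testis (-1.59 and -1.74, mean -1.67 ± 0.11). All 6 arrays therefore gave the order epididymis, SVF, testis. Simple epithelium genes, 6 of 6 higher in epididymis in both comparisons (medians 3.89 over SVF and 3.05 over testis), moved the same way, and their part in the Itga3 ratio was not tested. Itga6, the other common laminin receptor chain, was 2.26-fold higher in SVF than in testis as a mean of its probes (-1.32 and -1.02, mean -1.17 ± 0.21), but neither of its probes alone met the rule there (-1.86 and -0.38 on one, -0.79 and -1.67 on the other). For epididymis over testis its probes disagreed, since one met the rule at 1.56 and 1.30 (2.69-fold) and the other read -1.44 and 1.09, and their mean did not meet it (0.63 ± 0.80). Itga7, the laminin receptor chain of muscle, did not meet the rule, with means of -0.51 ± 0.57, -0.28 ± 0.46 and 0.67 ± 0.12.

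Itgb1, the beta chain that pairs with the largest number of alpha chains, was lower in testis than in both other tissues. It stood at -1.89 and -2.12 for testis over SVF (-2.01 ± 0.16, 4.02-fold higher in SVF) and at 2.05 and 1.74 for epididymis over testis (1.89 ± 0.22, 3.71-fold higher in epididymis). Epididymis over SVF read 0.16 and -0.25, on either side of 0. Simple epithelium genes (6 of 6, median 3.05) and epididymal duct genes (6 of 6, median 5.004) were also higher in epididymis than in testis. So were smooth muscle genes (3 of 6) and mesenchymal progenitor genes (3 of 5, with opposite signs on the arrays for the other 2). The part of any of these cells in the Itgb1, Lamb2 and Lamc1 ratios was not tested. Itgb4, which pairs with Itga6 in hemidesmosomes, the rivets of epithelial cells to laminin, was 7.36-fold higher in SVF than in testis (-3.13 and -2.62, mean -2.88 ± 0.36) and did not differ by the rule between epididymis and SVF (0.29 and 0.55). Its direct arrays of epididymis and testis contradicted each other, at -2.55 and 3.30.

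The loop of 3 comparisons gives a second reading of such genes, because epididymis over testis can also be formed through SVF. For Itgb4 the ratio through SVF was 3.30, which matched the second direct array (3.30) and lay 5.84 from the first (-2.55). Itga4, a leukocyte and mesenchymal chain that binds fibronectin and Vcam1, was the other member with a wide gap, with direct arrays at -3.80 and 0.98 and -0.51 through SVF. Its arrays also lay apart for testis over SVF, at -1.35 and 0.51, and for epididymis over SVF, at -1.41 and -0.44. Direct and indirect ratios lay within 0.5 of each other for 25 of 36 genes, with a median distance of 0.29. The sum around the loop was at most 1 in size for 35 genes, Itgb4 being the exception at -2.92. Both routes had opposite signs for Itga2, Itga8, Itgal, Itgam, Itgb3, Lama1 and Lamc3, none of which met the rule between epididymis and testis.

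**Figure D3:**
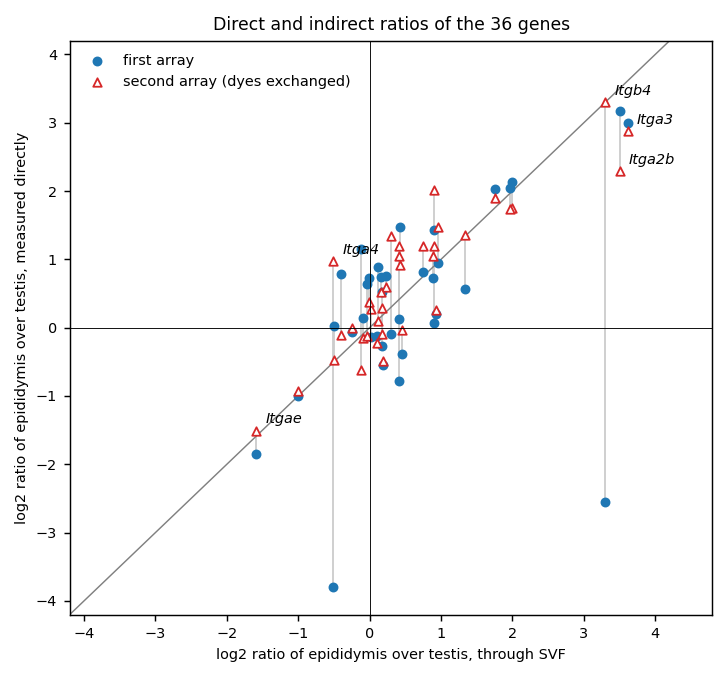
Log2 ratio of epididymis over testis for the 36 genes, through SVF (x axis) and on the direct arrays (y axis; circles, first array; triangles, second array with dyes exchanged), with the line of equality. Most genes lie near the line, Itga3 and Itga2b at its upper right, and the first array of Itgb4 (-2.55) and of Itga4 (-3.80) lie far below it.

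The alpha chains that bind fibronectin and other ligands with the arginine-glycine-aspartate (RGD) motif, or related ligands, went in different directions. Itga5, the main fibronectin receptor chain, was 5.73-fold higher in SVF than in testis (-2.28 and -2.76, mean -2.52 ± 0.34) and 6.11-fold higher than in epididymis (-2.57 and -2.65, mean -2.61 ± 0.06). Epididymis over testis lay within the SD of 0 (-0.01 ± 0.20). Its ligand fibronectin, Fn1, was higher in SVF as well, at -4.68 ± 0.10 and -4.95 ± 0.21. Itga9, a receptor chain for tenascin and Vcam1, met the rule only for SVF over testis (-1.34 and -1.86, 3.04-fold), with -0.56 and -2.05 for epididymis over SVF, and Itga8, a chain of smooth muscle and mesenchymal cells, met it nowhere (means -0.18 ± 0.44, 0.27 ± 0.48 and -0.21 ± 0.25).

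Itgav, the chain that binds vitronectin and activates latent TGF-beta, was 3.84-fold higher in epididymis than in testis (2.13 and 1.76, mean 1.94 ± 0.26). Against SVF it read 1.35 and 0.84 for epididymis and -0.72 and -1.09 for testis, outside the rule on 1 array of each pair. Its beta partners did not follow it together. Itgb5 was 2.35-fold higher in SVF than in testis (-1.30 and -1.16) and 2.32-fold higher than in epididymis (-1.39 and -1.05), where it lay just inside the rule, and epididymis over testis read 0.07 ± 0.29. Itgb6, an epithelial chain, had 0.73 and 1.05 for epididymis over testis and missed the rule on 1 array, and Itgb8 had -1.001 and -0.93 in the direction of testis and missed it narrowly on the second. Itgb3 never met it (means -0.48 ± 0.56, -0.51 ± 0.41 and 0.25 ± 0.53).

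Itga2b, the platelet and megakaryocyte chain that pairs with Itgb3, was highest in epididymis. Its epididymis over testis ratios were 3.17 and 2.29 (2.73 ± 0.62, 6.64-fold), its epididymis over SVF ratios 2.52 and 1.54 (2.03 ± 0.69, 4.08-fold) and its testis over SVF ratios -1.25 and -1.70 (-1.47 ± 0.32). Of 5 platelet markers none was higher in epididymis than in SVF or testis, and the platelet chemokine genes Pf4 (-5.54 ± 0.49) and Ppbp (-3.19 ± 0.26) were higher in SVF than in epididymis. Simple epithelium genes (6 of 6, medians 3.89 over SVF and 3.05 over testis) and epididymal duct genes (6 of 6, medians 5.96 and 5.004) were higher in epididymis in both comparisons. The part of any of these cells in the Itga2b ratio was not tested. Only 1 probe reads Itga2b on this array.

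Among the leukocyte integrins, Itgax, Itgb2 and Itgb7 were higher in SVF than in both other tissues. Itgax, the alpha chain of dendritic cells and many tissue macrophages, had testis over SVF ratios of -3.35 and -4.56 (-3.96 ± 0.86, 15.5-fold higher in SVF). Against epididymis it was 6.12-fold higher in SVF (-2.03 and -3.19, mean -2.61 ± 0.82). Itgb2, the beta chain common to this leukocyte family, was 6.94-fold higher in SVF than in testis (-2.64 and -2.95, mean -2.80 ± 0.21) and 6.43-fold higher than in epididymis (-2.35 and -3.02, mean -2.68 ± 0.48). Itgb7, the beta chain of lymphocyte homing to gut, was 4.07-fold (-1.78 and -2.27) and 3.65-fold (-2.001 and -1.74) higher in SVF. For these 3 genes epididymis and testis did not meet the rule, with means of 0.96 ± 0.56, 0.50 ± 0.56 and 0.63 ± 0.16.

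The other alpha partners of Itgb2 did not meet the rule. Itgal, the alpha chain of lymphocyte adhesion to Icam1, had means of -0.29 ± 0.45, -0.10 ± 0.03 and -0.52 ± 0.04. Itgam, the chain of neutrophils, monocytes and macrophages, read 0.92 and -1.38 for testis over SVF, on both sides of 0, and -0.58 and -0.68 for epididymis over SVF. Itgb2l, a relative of Itgb2, had means between 0.00 and 0.66. The ligand Icam1 was higher in SVF in both comparisons (-4.31 ± 0.19 and -3.70 ± 0.31). Pan-leukocyte genes were higher in SVF for 3 of 3 (medians -4.91 against testis and -3.15 against epididymis) and macrophage genes for 5 of 6 and 6 of 6 (medians -3.29 and -2.87), and their part in the ratios of Itgax, Itgb2 and Itgb7 was not tested.

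Promoters of 4 integrins are shown for comparison of these patterns: Itgax and Itgb7, high in SVF, Itgam, the relative near Itgax that never met the size rule, and Itga2b, high in epididymis. The windows, from RefSeq in GRCm38.p6 and read along the gene, are chr7:128129300-128129599 and chr7:128062390-128062689 on the plus strand and chr15:102231886-102232185 and chr11:102469834-102470133 on the minus strand. The starts of Itgam and Itgax lie 66.9 kb apart. Capitals mark GAGGAA, a core bound by Ets family factors such as the myeloid factor PU.1, or its reverse complement. It can share at most 1 letter with the GC box.

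Itgax: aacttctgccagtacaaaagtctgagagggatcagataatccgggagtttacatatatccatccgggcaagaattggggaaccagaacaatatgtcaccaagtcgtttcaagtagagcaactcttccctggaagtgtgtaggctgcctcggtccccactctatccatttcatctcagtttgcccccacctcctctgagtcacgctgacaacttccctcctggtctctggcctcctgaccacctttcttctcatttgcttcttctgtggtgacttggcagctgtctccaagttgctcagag

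Itgam: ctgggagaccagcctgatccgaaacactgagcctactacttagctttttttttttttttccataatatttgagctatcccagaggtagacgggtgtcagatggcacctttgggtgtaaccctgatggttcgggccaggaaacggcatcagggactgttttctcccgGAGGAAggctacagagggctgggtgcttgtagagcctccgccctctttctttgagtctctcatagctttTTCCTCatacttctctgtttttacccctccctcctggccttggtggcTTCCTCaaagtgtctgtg

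Itgb7: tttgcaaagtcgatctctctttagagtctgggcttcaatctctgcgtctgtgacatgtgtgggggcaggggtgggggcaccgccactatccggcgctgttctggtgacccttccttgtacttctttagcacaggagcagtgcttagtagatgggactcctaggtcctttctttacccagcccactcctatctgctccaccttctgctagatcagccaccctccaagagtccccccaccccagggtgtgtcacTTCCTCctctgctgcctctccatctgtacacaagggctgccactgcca

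Itga2b: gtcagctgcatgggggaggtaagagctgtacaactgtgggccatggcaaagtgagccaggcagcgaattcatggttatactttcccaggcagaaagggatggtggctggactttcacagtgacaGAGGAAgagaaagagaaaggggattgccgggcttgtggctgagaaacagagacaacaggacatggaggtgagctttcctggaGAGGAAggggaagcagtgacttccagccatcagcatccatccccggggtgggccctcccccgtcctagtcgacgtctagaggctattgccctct

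Itgax had no GAGGAA in this window, and Itgam had 3. As with the GC box, a match or its absence describes the letters of the window alone, and its bearing on the ratios was not tested. Itga2b had 2 matches, at -126 and -44 from the start, and Itgb7 had 1, at 2. The motif was present in 15 of 27 member windows (55.6%) and in 28.3% of all windows.

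Itgae, the alpha chain by which intraepithelial lymphocytes bind E-cadherin, was the only integrin higher in testis, and its probes disagreed. The mean of its probes was 4.44-fold higher in testis than in SVF (1.99 and 2.31, mean 2.15 ± 0.23) and 3.20-fold higher in testis than in epididymis (-1.85 and -1.51, mean -1.68 ± 0.24). One probe carried this alone, with testis over SVF at 4.60 and 4.35 (22.2-fold), epididymis over testis at -3.34 and -3.28 and epididymis over SVF at 1.04 and 1.40. The other probe lay near 0, at -0.62 and 0.27, -0.36 and 0.27 and -0.22 and 0.03. Of 6 T and NK cell markers none was higher in testis than in SVF and 5 were higher in SVF. Germ cell genes moved toward testis with it (7 of 8, median 5.33 over SVF). So did Leydig cell genes (5 of 5, median 3.88) and 2 of 6 Sertoli cell genes (median of the 6, 0.09). The part of any of these cells in the Itgae ratio was not tested. The ligand gene Cdh1 was higher in epididymis (3.81 ± 1.05 over SVF, 2.89 ± 1.32 over testis).

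Itgav showed the same split between probes. One probe gave -1.61 and -2.33 for testis over SVF, 2.01 and 1.57 for epididymis over SVF and 3.999 and 2.97 for epididymis over testis (11.2-fold), while the other gave 0.18 and 0.16, 0.68 and 0.12 and 0.25 and 0.54. Itgb1 probes gave the same direction with different size, at -2.66 ± 0.32 and -1.35 ± 0.00 for testis over SVF and 2.79 ± 0.28 and 0.998 ± 0.16 for epididymis over testis. The other genes with 2 probes were Itga6, Itgb2l, Lama1 and Lama3. As deposited, 1 Lama3 probe read between -2.63 and -0.80 on all 6 arrays, below 0 whichever tissue carried Cy5.

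**Figure D4:**
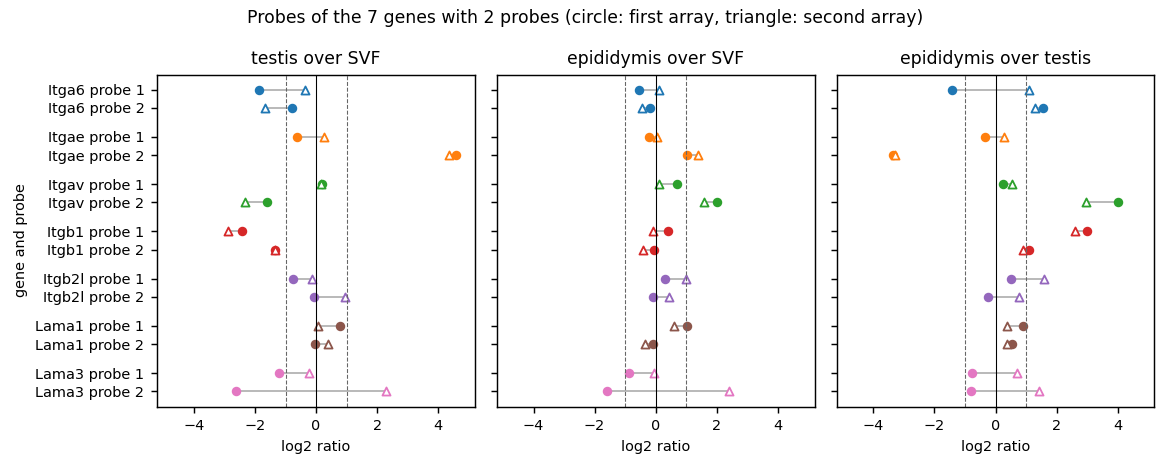
Log2 ratio (x axis) of each probe of the 7 genes with 2 probes (y axis) on the first array (circle) and the dye-exchanged array (triangle) of the 3 comparisons. The probes of Itgae and Itgav disagree, with testis over SVF means of -0.17 and 4.47 for Itgae, and a Lama3 probe changes sign with the dyes (-2.63 and 2.29 in testis over SVF).

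Among the collagen-binding alpha chains, Itga1, found on mesenchymal and vessel cells, was the only member that met the rule, at -1.66 and -1.41 for testis over SVF (-1.54 ± 0.17, 2.90-fold higher in SVF). Itga10, a chain of cartilage cells, and Itga11, a chain of fibroblasts, had means between -0.42 and 0.23 in all comparisons. Itga2, a chain of epithelia and platelets, read 0.81 and -0.94 for testis over SVF, 1.11 and -1.47 for epididymis over SVF and 1.16 and -0.62 for epididymis over testis, with opposite signs on each pair of arrays. As deposited, Itga2 was above 0 on all 6 arrays (0.62 to 1.47) and Lama3 below 0 on all 6, so their sign went with the channel, whichever tissue it held. Such a sign on all 6 arrays was found for 2 of the 36 genes (5.56%) and for 6.37% of all named genes. The collagen genes Col1a1 (-3.17 ± 0.44, -1.92 ± 0.66) and Col3a1 (-3.99 ± 0.27, -2.62 ± 0.95) were higher in SVF against both other tissues.

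The partners of the laminins in the basement membrane were also mostly higher in SVF. Of 19 such genes, SVF exceeded testis for 11 (57.9%, beside 16% of all genes) and testis exceeded SVF for none, beside 20.7% (median -2.19). SVF exceeded epididymis for 9 (47.4%, beside 8.68%). Epididymis exceeded SVF for 1, the laminin-binding netrin Ntn4 (5.26%, beside 10.2%), and the median was -0.94. Fbln2, a fibulin, stood at -4.60 ± 0.33 against testis and -3.84 ± 0.50 against epididymis, and Col15a1, a collagen beside basement membranes, at -4.26 ± 0.55 and -3.47 ± 0.08. The collagen IV chains Col4a1 and Col4a2 stood at -3.39 ± 0.05 and -3.91 ± 0.30 against testis, and the nidogen gene Nid1 at -3.34 ± 0.41. Perlecan, Hspg2, did not meet the rule (-0.26 ± 0.16 and 0.18 ± 0.52). Between epididymis and testis, 9 of 19 were higher in epididymis (47.4%, beside 14.3% of all genes) and none in testis, beside 18% (median 1.27).

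**Figure D5:**
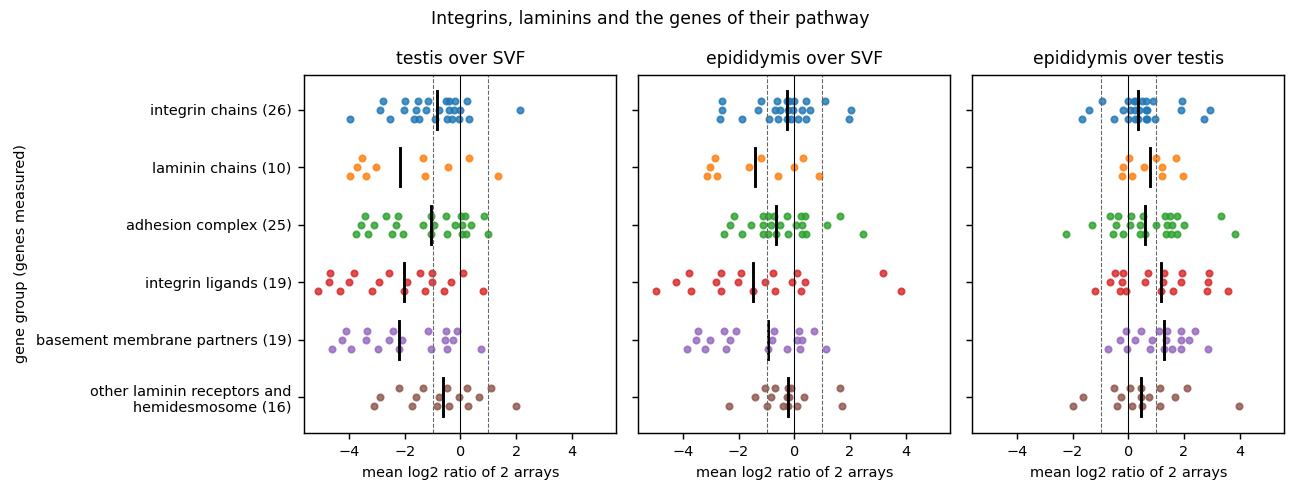
Mean log2 ratio of both arrays (x axis) for every measured gene of the integrins, the laminins and 4 pathway groups (y axis, with the number of genes) in the 3 comparisons; black bars are medians and dashed lines mark a log2 ratio of 1 in either direction. The laminin and basement membrane medians lie at -2.18 and -2.19 in testis over SVF.

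Integrin ligands were higher in SVF than in testis for 13 of 19 genes (68.4%, beside 16% of all genes, median -2.03). None was higher in testis, beside 20.7%. Against epididymis, 10 of 19 were higher in SVF (52.6%, beside 8.68%, median -1.49). The 2 higher in epididymis (10.5%) were near the 10.2% of all genes. Between the organs, 8 of 19 were higher in epididymis (42.1%, beside 14.3%) and 1 in testis (5.26%, beside 18%). Ccn1, a matricellular ligand also counted among early response genes, stood at -5.13 ± 0.41 against testis and -4.26 ± 0.07 against epididymis, and Postn, periostin, at -4.71 ± 0.14 and -2.04 ± 0.72. Vcam1, the ligand of Itga4, was higher in SVF (-2.91 ± 0.01 and -3.79 ± 0.42) and was the only ligand higher in testis than in epididymis (-1.20 ± 0.23). Mfge8, a secreted bridge between Itgav receptors and phosphatidylserine, was 1 of the 2 ligands higher in epididymis than in SVF, at 3.19 ± 0.21 (9.14-fold), and at 3.56 ± 0.29 over testis (11.8-fold). The other was Cdh1.

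Inside the cell, SVF exceeded testis for 10 of 25 adhesion complex genes (40%, beside 16% of all genes). Testis exceeded SVF for none, beside 20.7%, and the median was -1.05. Against epididymis 7 were higher in SVF (28%, beside 8.68%) and 2 were higher in epididymis (8%, near the 10.2% of all genes), with a median of -0.68. Between the organs, 11 were higher in epididymis (44%, beside 14.3%) and 1, the actinin gene Actn1, in testis (4%, beside 18%), with a median of 0.59. The small GTPase Rap1b, which drives integrin activation, stood at -3.73 ± 0.19 and -2.17 ± 0.05 toward SVF. Parva, a parvin that links Ilk to actin, was lower in testis than in both other tissues (-3.44 ± 0.59 for testis over SVF, 3.84 ± 0.20 for epididymis over testis). Fermt1, the kindlin of epithelia, was higher in epididymis than in SVF (2.47 ± 0.06) and testis (3.34 ± 0.25), as was Ilk (1.65 ± 0.44 and 1.39 ± 0.42). Talin, Tln1, the direct activator of beta chains, met the rule nowhere (0.16 ± 0.26, -0.53 ± 0.22 and -0.56 ± 0.27).

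Among 16 other laminin receptors and hemidesmosome genes, SVF exceeded testis for 6 (37.5%, beside 16% of all genes). Testis exceeded SVF for 1 (6.25%, beside 20.7%), and the median was -0.62. Against epididymis, 2 of 16 were higher in SVF (12.5%, beside 8.68%) and 1 in epididymis (6.25%, beside 10.2%), with a median of -0.24. Epididymis exceeded testis for 3 (18.75%, beside 14.3%) and testis exceeded epididymis for 2 (12.5%, beside 18%), with a median of 0.45. The counts of these last 2 comparisons were near the shares of all genes. The syndecan gene Sdc1, a proteoglycan receptor of epithelia, was higher in epididymis than in SVF (1.64 ± 0.06) and than in testis (3.96 ± 0.33). Bcam, a receptor for Lama5 laminins, was higher in SVF than in testis (-3.10 ± 0.48) and in epididymis than in testis (2.12 ± 0.22). Dystroglycan, Dag1, did not meet the rule (0.25 ± 0.12, 0.34 ± 0.34 and 0.49 ± 0.01). Sarcoglycan alpha, Sgca, a muscle partner of dystroglycan, was the gene higher in testis than in SVF (1.98 ± 0.24).

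Of the 4 genes named after integrins that encode no chain, Itgbl1, a beta chain relative without a membrane anchor, was higher in SVF than in testis (-2.26 and -2.54) and than in epididymis (-1.95 and -1.70). Itgb3bp, a centromere protein known also as a binding partner of Itgb3, read 0.93 and 1.12 for testis over SVF and missed the rule on 1 array. Itgb1bp1, a binding protein of the Itgb1 tail, missed it on 1 array too (-2.07 and -0.82), and Itgb1bp2, a muscle protein, read 1.26 and -2.57, with opposite signs.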

How the data were processed

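The 6 arrays used 2 colours and compared testis, epididymis and SVF total RNA in 3 dye swaps, with Qiagen named for extraction and Ambion for labelling. The deposited table gives 1 log ratio per array for each of 25344 probes, with no missing value, and was read as log2 of Cy5 over Cy3. The normalization and background correction by the authors are not given in the sources of this work, nor are scale and direction. Column medians as deposited were 0.01, 0.11, 0.04, 0.05, 0.01 and 0.01. Exchanged arrays correlated at -0.86, -0.64 and -0.77 over all probes (Pearson's r across probes, which are not independent), and the ratio of the exchanged array was turned.

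Of 21112 annotated probes, 20456 were named by gene ID, 220 by symbol and 248 by the annotated name, while 30 with several genes and 158 with a symbol not of mouse form stayed unnamed. A gene was the mean of its probes.

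All members are accounted for, with array values for those that met the size rule. Of each pathway group, up to 4 genes with the largest ratios were to be named, and further genes there, and the GC box, were chosen after their values were seen. Members, gene groups and rules were chosen with earlier results of these data known. Promoters are RefSeq's, in GRCm38.p6. Alternatives were median centring, a loop estimate, other call and probe rules, complete probes, natural logarithms and each array left out. Python 3.11.15, pandas 2.3.3 and numpy 2.4.6 were used.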

Additional observations from a re-analysis of the deposited data

Results flagged for a closer look

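For 6 genes both testis arrays lay on one side of SVF and both epididymis arrays on the other, so that the direction against SVF differed between the organs. With 1 RNA sample per tissue this difference was not tested. The flag asks for signs alone and sets no size, so Itgb6 entered with an epididymis over SVF array at 0.005. How many of all named genes would meet it was not counted. As epididymis over SVF minus testis over SVF, the difference was 3.61 for Itga3, 3.50 for Itga2b, 3.30 for Itgb4, 1.998 for Itgav, 0.89 for Itgb6 and -0.999 for Itgb8. The direct arrays of epididymis over testis gave 2.94 ± 0.09, 2.73 ± 0.62, 0.38 ± 4.14, 1.94 ± 0.26, 0.89 ± 0.22 and -0.96 ± 0.05 in the same order. Only Itga3 and Itga2b met the size rule in opposite directions against SVF, and Itgb6 and Itgb8 met it in no comparison. The Itgav value is a mean of probes that disagree, and the Itgb4 arrays of epididymis and testis had opposite signs.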

How the results depend on the processing

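No paired analysis was possible because the labels give no replicate numbers and each tissue is 1 RNA sample. Counts in order are the genes higher in testis than SVF, in SVF than testis, in epididymis than SVF, in SVF than epididymis, in epididymis than testis and in testis than epididymis, which were 2, 18, 2, 11, 6 and 1. Requiring 4-fold on both arrays gave 0, 9, 0, 7, 2 and 0, beside 12.1%, 7.61%, 2.7%, 3.64%, 4.99% and 9.6% of all genes. With single-probe genes alone, the first count was 1 and the last 0, since Itgae has 2 probes. Read as natural logarithms, the last 2 counts were 10 and 2. The loop estimate and 2-fold on the mean alone each gave 2 for the last count, by adding Itga4. Leaving out 1 array, which calls from the array left, gave 2 to 3, 21 to 21, 4 to 4, 13 to 13, 8 to 15 and 1 to 4. The shares of all genes were then 26.0% to 26.3%, 21.4% to 21.7%, 17.3%, 14.4% to 14.6%, 19.8% to 20.3% and 24.1% to 24.3%. Median centring kept every count within 1.5 times. The median over probes and probes with values on all 6 arrays could not change a member count. No member has more than 2 probes, and no value was missing. Of the 40 member ratios that met the rule, none changed sign under the alternatives run on values. Those were 314 values, of which 48 moved by more than the SD of the arrays. Most of these alternatives could not change a sign, so this says little about stability. A ratio that met the rule has the same sign on both arrays, so leaving out 1 array cannot turn it. Natural logarithms only rescale it, and the probe settings returned the same values. Only median centring and the loop estimate could have turned a sign. Spot brightness was not analysed here, so signal over background, which limits small and large ratios alike, is unknown.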
